A study of Mus musculus with 4 samples.

Results

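The genes described here encode chaperones of the endoplasmic reticulum (ER), factors of ER-associated degradation and components of the unfolded protein response. The set holds 35 genes, named as a list, of 12393 genes that have a probe set with 1 symbol on the array. For each gene the probe set with the highest mean signal over the 4 arrays was used, and probe sets annotated with several symbols were not used. All 35 genes were on the array, and all 35 passed the filter on dim probe sets (a mean signal of at least 51.9), as did 7514 genes in all. Expression was measured with Affymetrix Mouse 430A 2.0 arrays in NF639 cells. This established mouse line was grown out of a mammary tumour that carried the ErbB2 (Her-2/neu) oncogene as a transgene driven by the MMTV promoter. The groups were the original NF639 population (2 arrays) and a pool of NF639 cells with resistance to the green tea polyphenol epigallocatechin gallate (EGCG; 2 arrays). The RNA came from separate experiments per the series' design, and the resistant cells are 1 pool. The spread between arrays of a group therefore covers repeat cultures of the same populations, together with technical differences between the arrays. The labels give no EGCG dose, do not say whether EGCG was present at harvest, and name no genotype or age other than the cell line.

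Proteins destined for secretion or for membranes enter the ER through the SEC61 channel, fold there with the help of chaperones and disulfide isomerases, and are pulled back to the cytosol for degradation when folding fails. When unfolded proteins accumulate, the sensors IRE1 (encoded by Ern1), ATF6 and PERK start the unfolded protein response. IRE1 splices the Xbp1 transcript into the form that makes an active transcription factor, ATF6 is cut free from its membrane, and both factors raise transcription of chaperone and degradation genes through ER stress elements in their promoters. The array measures total Xbp1 transcript here and not its splicing. Secretory and tumour cells with a high protein load depend on this response.

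The deposited values are MAS5 signals, background-adjusted intensities on a linear scale, which the authors had scaled to nearly the same trimmed mean on each array (496.2 to 496.6). Fold changes are resistant minus original on the log2(signal + 3) scale from limma, with Benjamini-Hochberg adjustment over all 13576 probe sets tested. With 2 arrays per group an exact permutation test cannot go below a two-sided p of 0.333, so the text relies on the fit across all probe sets. BioB, BioC and BioDn are transcripts spiked into the hybridisation mix, and their 7 probe sets were 1.39 to 2.29 times brighter on the array numbered 2 than on the array numbered 1 of the same group, and 0.938 to 1.14 times as bright on the resistant as on the original array of the same number. The replicate number therefore follows a technical difference that both groups share, and results are also given within each number and with the number as a block in the fit. The array of original 2 stood apart in the 5′ probe set of 18S ribosomal RNA, with a signal of 4005.3 against 346.7 to 624.3 on the others. For Gapdh the 3′ probe set divided by the 5′ probe set was 0.754 and 0.772 on the original arrays. It was 0.788 and 0.798 on the resistant ones. The same ratio for Actb was 1.17 and 1.16 on the original and 1.24 and 1.13 on the resistant arrays, so the groups overlapped there. The part of these ratios in the results below was not tested. Of 6 markers of mammary epithelium, 1 passed the filter: Erbb2, with signals of 280.7 to 326.2. Because the tumour carried ErbB2 as a transgene, this signal does not by itself mark epithelium. Whether the probe set reads the transgene was not tested. Epcam (1.4 to 6.7), Cdh1 (6.7 to 15.3), Krt18 and Krt19 were near the floor on all 4 arrays. Krt8 was dim, at 27.5 to 62.9 on its brightest probe set, and did not pass the filter. The epithelial identity of the line does not show clearly in these markers. Of 5 leukocyte markers on the array 2 passed the filter, Cd14 (194.5 to 247.4) and Csf1r (46.5 to 103.8), while the defining marker Ptprc was at 7.4 to 14.8. Summed over all 5, passed or not, with the brightest probe set of each, the signal was 326.2 to 396.4 in the original arrays and 312.5 to 330.2 in the resistant ones. None of the 4 markers of endothelium or the 3 of adipocytes on the array passed. Of 6 fibroblast markers 5 passed the filter. Summed over all 6 in the same way, the signal was 5176.5 to 5904 in the original arrays, against 4734.3 to 5511.8 in the resistant ones. Col1a2, at 2427.3 to 4416, was the largest part of this sum on every array. With the block the collagen genes Col3a1 (1.99) and Col1a1 (0.99) and the growth factor receptor gene Pdgfra (0.72) passed higher, and Col1a2 (-0.62) and the proteoglycan gene Dcn (-2.14) passed lower. Col3a1 also passed without the block (limma adjusted p = 0.0472). The part of these lists in the results below was not tested. In bulk RNA, fewer cells of a kind and less RNA per cell cannot be told apart.

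Of the 35 genes 25 had a log2 fold change below 0 in the resistant pool, and none of these passed the test over all probe sets. Xbp1, the transcription factor gene, Hspa5, which encodes the chaperone BiP, the lectin chaperone gene Calr, the disulfide isomerase genes Pdia4 and Pdia6, and the ER stress-induced genes Manf, Creld2, Sdf2l1, Dnajc3 and Herpud1 had log2 fold changes of -0.34 to -0.85, and these 10 genes passed as lower only where the replicate number was a block in the fit. The channel genes Sec61a1 and Sec61b and the isomerase genes P4hb and Erp44 had values close to 0. Over the 35 genes the median log2 fold change was -0.14, with 25 below 0 and 10 above, while over all 7514 genes tested the median was 0.02 and 47% were below 0. The median was -0.22 without original 2 and -0.13 without original 1. It was -0.21 between the arrays numbered 1 and -0.13 between those numbered 2, and 22 genes were below 0 in both of these pairs (all genes tested: 27.5%), against 4 above 0 in both (all genes tested: 32.2%).

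None of the 35 genes passed the test over all probe sets (limma, Benjamini-Hochberg adjusted p = 0.368 for the lowest, Xbp1), where 0.213% of all genes tested were called lower and 0.133% higher. At an unadjusted p under 0.05 there were 7 lower genes and 0 higher, against 4.01% and 4.09% of all genes tested. With the replicate number as a block 10 genes passed, all lower, where 3.18% of all genes passed lower and 2.9% higher. The block uses up all but 1 residual degree of freedom, and limma then took its error from the trend over brightness alone, with no weight on a gene's own spread. With the block and no variance trend, where limma's prior degrees of freedom were 6.02, 0 of the 35 genes passed at the adjusted threshold and 9 had an unadjusted p under 0.05, all lower. In that fit 0.479% of all genes passed lower and 0.413% higher at the adjusted threshold, and 6.76% and 6.47% had an unadjusted p under 0.05. In 14 of the 35 genes both resistant arrays lay below both original arrays, and in 0 both lay above, while 17.3% and 19.9% of all genes tested were separated in these directions.

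**Figure D1:**
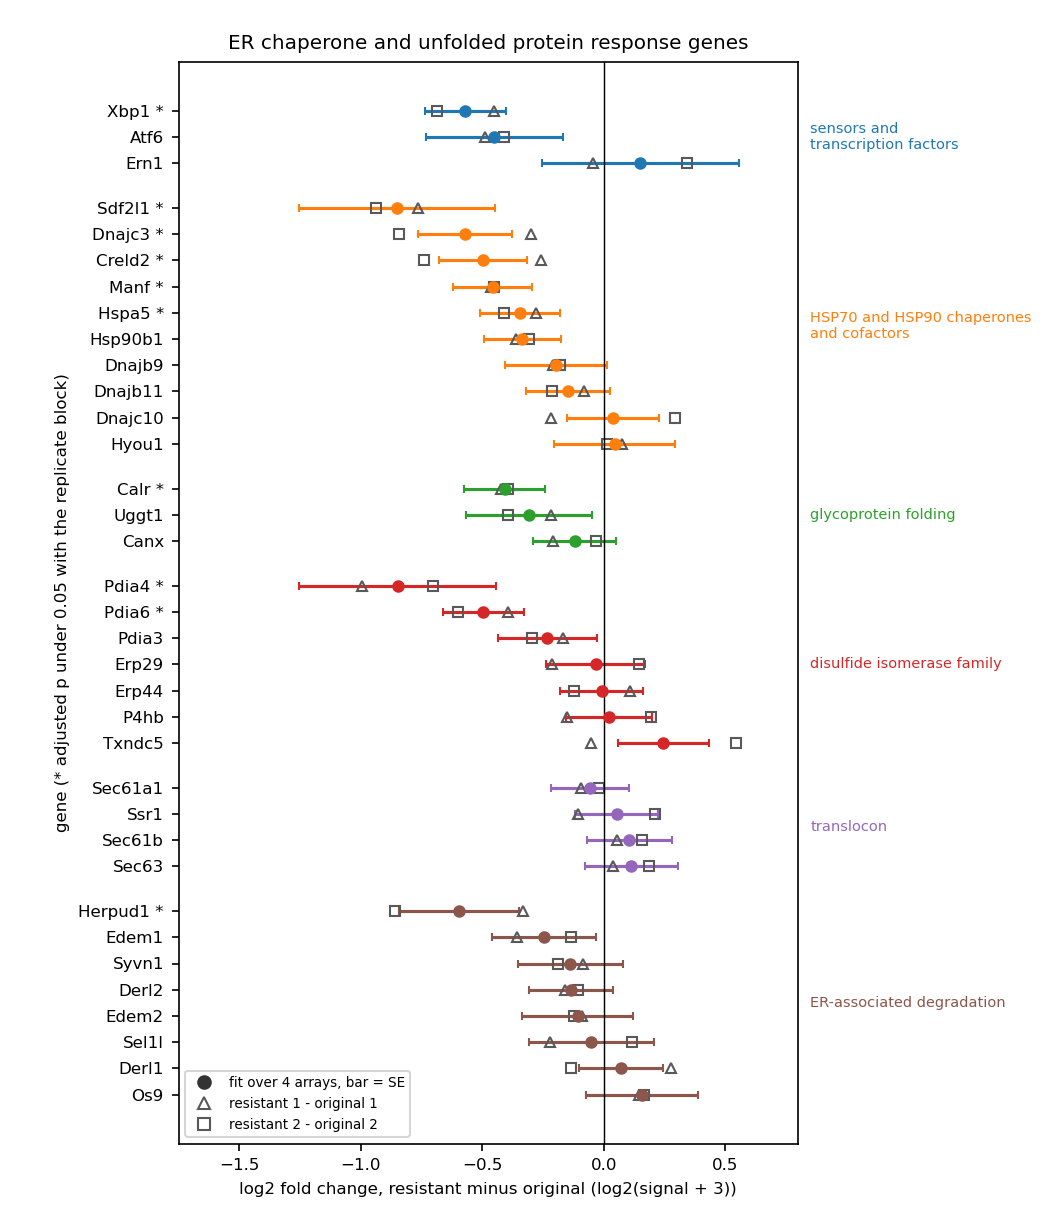
Log2 fold change (resistant minus original, log2(signal + 3) scale, x axis) of the 35 genes (y axis) by role, with the SE of the limma fit over 4 arrays as bars and the difference between arrays of the same number as open triangles (number 1) and squares (number 2); a star marks the 10 genes with an adjusted p under 0.05 with the replicate block. The chaperone genes Sdf2l1 (-0.85) and Hspa5 (-0.34) and the isomerase gene Pdia4 (-0.85) lie left of 0, and the 4 translocon genes lie between -0.06 and 0.11.

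The ER stress response element, to which ATF6 binds together with the factor NF-Y, and the shorter second ER stress element are among the sequences through which this response acts. The promoters of the set were searched for both. Apart from a shorter sequence that both contain, no other element was searched. RefSeq promoters on GRCm38.p6, from 250 bases before to 50 after a transcription start, were in the table for 29 of the 35 genes. The first element was searched as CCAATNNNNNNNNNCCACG and the second as ATTGGNCCACG, each on both strands, and no match of one overlapped a match of the other among the 29 genes. An exact match to the first was present in the promoters of 8 of 29 genes, against 0.137% of all 27025 genes with a promoter in the table, and a match to the second in 2 of 29, against 0.0444%. Counted by promoter, 0.119% and 0.0365% of all 32851 promoters held them. The shorter sequence CCACG alone, which both elements contain, was in 24 of 29, against 35.5% of all genes and 32.8% of all promoters. In 19 of the 29 genes neither of the longer elements was in the window. The matches that lie before the start site are printed here 5′ to 3′ on the strand of the gene, with the element in capitals, because the values of the genes with and without a match are set side by side after them.
Hspa5: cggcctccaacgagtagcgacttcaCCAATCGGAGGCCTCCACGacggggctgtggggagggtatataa
Hsp90b1, nearer: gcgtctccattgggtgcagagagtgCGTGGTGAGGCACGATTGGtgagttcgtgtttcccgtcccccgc
Hsp90b1, farther: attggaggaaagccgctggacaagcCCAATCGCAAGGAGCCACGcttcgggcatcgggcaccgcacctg
Dnajc3: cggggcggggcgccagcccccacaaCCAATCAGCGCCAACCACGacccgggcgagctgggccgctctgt
Creld2: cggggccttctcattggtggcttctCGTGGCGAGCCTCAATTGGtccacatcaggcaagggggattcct
Calr: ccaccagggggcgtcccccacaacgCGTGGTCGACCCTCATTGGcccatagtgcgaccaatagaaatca
Canx: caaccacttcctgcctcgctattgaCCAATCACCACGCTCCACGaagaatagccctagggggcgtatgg
Pdia6: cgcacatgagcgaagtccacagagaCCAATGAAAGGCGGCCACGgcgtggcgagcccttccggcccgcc
Syvn1: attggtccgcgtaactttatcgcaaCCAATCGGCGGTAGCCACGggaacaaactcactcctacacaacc
Herpud1: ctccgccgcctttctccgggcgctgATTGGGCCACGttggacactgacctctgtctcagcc

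These windows are at chr2:34772000-34772068 (plus strand) for Hspa5, chr10:86705508-86705576 and chr10:86705613-86705681 (minus strand) for Hsp90b1, chr14:118937802-118937870 (plus) for Dnajc3, chr15:88819495-88819563 (plus) for Creld2, chr8:84847050-84847118 (minus) for Calr and chr11:50325775-50325843 (minus) for Canx. Those of Pdia6, Syvn1 and Herpud1 are at chr12:17266466-17266534, chr19:6046507-6046575 and chr8:94386352-94386412, all on the plus strand. The element began 65 bases before the annotated start in Hspa5, 107 and 212 in Hsp90b1, 105 in Dnajc3, 126 in Creld2, 162 in Calr, 145 in Canx, 98 in Pdia6, 44 in Syvn1 and 52 in Herpud1. In Creld2, Calr and the nearer copy of Hsp90b1 it ran in the reverse direction, so that the CGTGG end comes first. The second match to the shorter element was in Dnajb11, just after the start site, and is not printed.

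All 10 genes with either element had a log2 fold change below 0, from -0.12 for Canx to -0.60 for Herpud1, with a median of -0.38 (-0.29 between the arrays numbered 1 and -0.40 between those numbered 2). The other 19 genes with a promoter in the table had a median of -0.05, with 11 below 0, and they include the lowest values of the set, Sdf2l1 and Pdia4. With the replicate block 6 of the 10 genes and 3 of the 19 passed lower. Over all 6176 tested genes with a promoter in the table the median was 0.01, 47.7% were below 0 and 2.93% passed lower with the block. Outside the set 39 genes had either element in a promoter, of which 8 were tested. These had a median of -0.10, with 5 below 0 and 0 passing with the block. The log2 fold changes of the 8 were -0.70 for Lgalsl, -0.42 for Pan2, -0.28 for Ero1b, an oxidase gene of the ER, -0.19 for Rcl1, -0.01 for Rbm39, 0.01 for Krtcap2, 0.17 for Nucb1 and 0.17 for Alg12, a mannosyltransferase gene of the ER. The match of Alg12 and that of Creld2 are the same bases on chromosome 15. The difference between genes with and without an element was not tested, and the match is a description of the sequence.

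Among the sensors and transcription factors, Xbp1 had signals of 3141.1 and 3716.9 in the original against 2297.4 and 2306.8 in the resistant arrays. The groups did not overlap, and the resistant arrays lay close together. The means were 3429 ± 407 and 2302 ± 6.65 (SD, n = 2 per group), and the log2 fold change was -0.57 ± 0.17 (SE; limma adjusted p = 0.368, and 0.00269 with the replicate block). All 4 tested probe sets of Xbp1 were below 0, from -0.64 to -0.28, and 3 of them passed with the block. The probe set used is of a kind (_s_at) that the array's design marks as shared between transcripts, as are those of Hyou1, Dnajc10, Canx, Sec63 and Derl1. Atf6, the membrane-bound transcription factor, had signals of 551.3 and 352.2 against 391.4 and 264.4. Here the groups overlapped and the array numbered 2 was the lower in both, with -0.49 and -0.41 within the numbers and -0.45 ± 0.28 (SE) in the fit (limma adjusted p = 0.82). Ern1, which encodes IRE1, was dim, with 61.2 and 60.6 against 59.3 and 77.7, near the filter's signal of 51.9. Its log2 fold change was 0.15 ± 0.41 (SE), with an interval from -0.75 to 1.05, too wide to place the gene.

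BiP is the abundant HSP70 chaperone of the ER and holds the sensors inactive, and HSP90B1 is the ER member of the HSP90 family. Hspa5 had signals of 10840.2 and 11974.9 in the original against 8928.2 and 9018.9 in the resistant arrays, a log2 fold change of -0.34 ± 0.16 (SE; limma adjusted p = 0.699, and 0.0243 with the block). The groups did not overlap. Its second probe set gave -0.53 and also passed with the block. Hsp90b1 had 5773.8 and 5914.4 against 4485.6 and 4782.5, again with no overlap. Its log2 fold change of -0.33 ± 0.16 (SE) did not pass with the block (limma adjusted p = 0.0913), while its other probe set, at -0.56, did. The interval of the fit without the block ran from -0.71 to 0.02 for Hspa5 and from -0.69 to 0.02 for Hsp90b1.

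Sdf2l1, Manf and Creld2 are smaller proteins of the ER that stress induces. Sdf2l1, which binds ER co-chaperones of the DNAJ family, had 310.5 and 705.2 in the original against 181.6 and 366.7 in the resistant arrays. The array numbered 2 was the brighter in both groups, and the groups overlapped, but within each number the resistant array was the lower one, by -0.76 and -0.94 on the log2 scale. The fit gave -0.85 ± 0.40 (SE; limma adjusted p = 0.699, and 0.00243 with the block), and leaving out 1 array moved it between -1.44 (without original 1) and -0.26 (without original 2). Manf, a protein of the ER that is secreted under stress, had 4390.5 and 4767.3 against 3182.3 and 3488.4. Its arrays did not overlap and its differences within the numbers were nearly the same, -0.46 and -0.45 (adjusted p = 0.532 in limma, and 0.0148 with the block). Creld2, an ER stress-induced protein with EGF-like repeats, had 1805.6 and 2062.1 against 1510 and 1235.3, a log2 fold change of -0.50 ± 0.18 (SE; limma adjusted p = 0.537, and 0.0374 with the block). The groups did not overlap, and the difference was larger between the arrays numbered 2 (-0.74) than between those numbered 1 (-0.26).

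Of the DNAJ co-chaperones, which deliver clients to BiP, Dnajc3 passed with the block, with 1008.7 and 1216.6 in the original against 818.6 and 676.9 in the resistant arrays. The groups did not overlap, and the fit gave -0.57 ± 0.19 (SE; limma adjusted p = 0.484, and 0.0297 with the block). All 5 tested probe sets of Dnajc3 were below 0, and 1 passed with the block. Dnajb9, which restrains IRE1, had 481.4 and 431.2 against 415.5 and 380, and Dnajb11 had 1094.7 and 1127 against 1033.1 and 973.3. Neither gene overlapped between the groups, at log2 fold changes of -0.20 ± 0.21 and -0.15 ± 0.17 (SE), and neither passed with or without the block. Dnajc10, a reductase that breaks disulfides of proteins bound for degradation, had 1531.2 and 1163.3 against 1315.8 and 1426.4, so the resistant arrays lay between the original ones (0.04 ± 0.19, SE). Hyou1, which exchanges the nucleotide of BiP, had 491.8 and 722.8 against 518 and 730.3. It followed the array number and not the group on this probe set (0.05 ± 0.25, SE), while its 2 dimmer probe sets gave -0.64 and -0.61, neither of which passed.

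**Figure D2:**
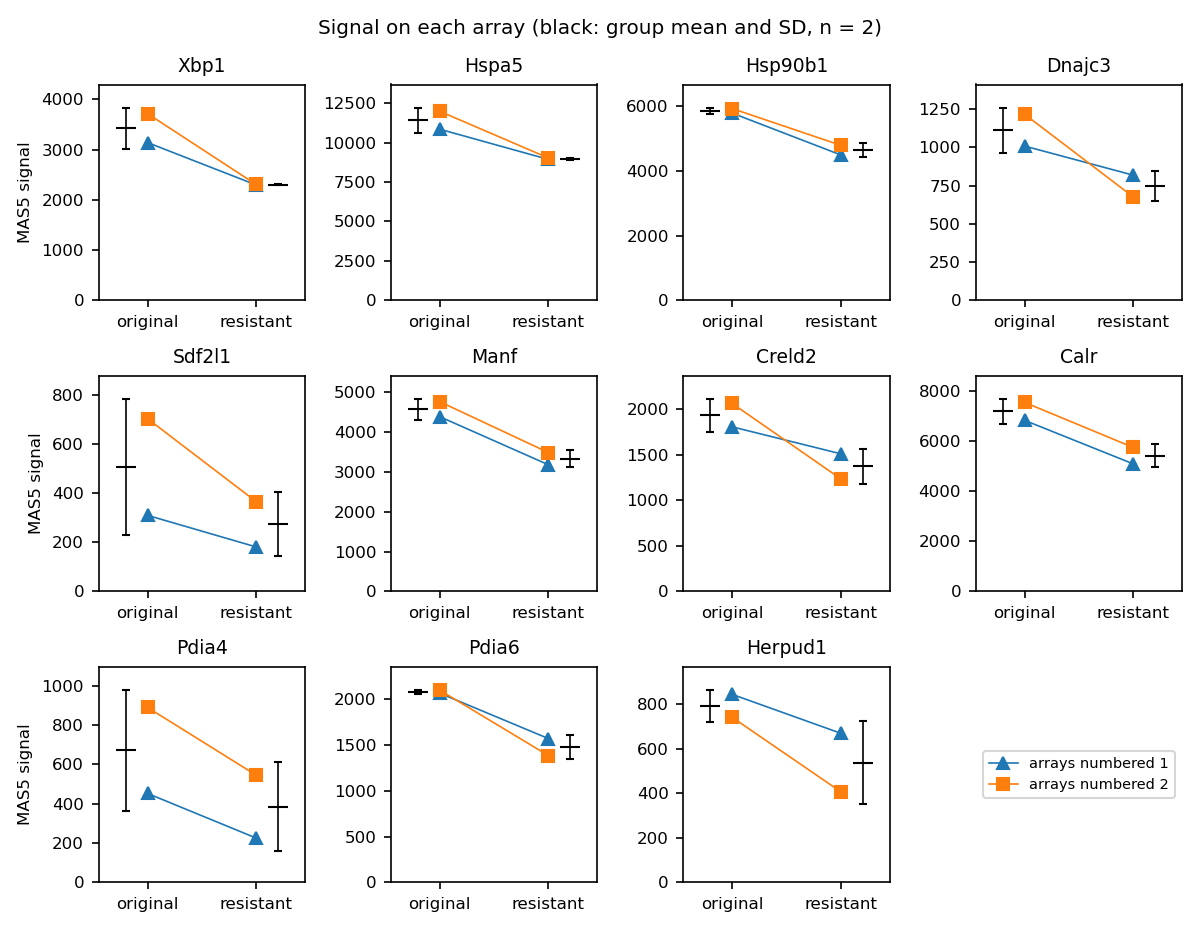
MAS5 signal (y axis, linear, from 0) of 11 genes on each of the 4 arrays (x axis, group), with lines joining arrays of the same number and the group mean and SD in black (n = 2). The panels show the 10 genes that passed lower with the replicate block, and Hsp90b1, which did not pass on the probe set shown. In each panel the resistant array lies below the original array of the same number, which for the 10 genes largely follows from that choice. Only in Sdf2l1 and Pdia4 do the groups overlap.

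Calreticulin and calnexin bind glycoproteins that carry a single glucose, and UGGT1 puts that glucose back on proteins that have not folded. Calr had signals of 6824.7 and 7541.2 in the original against 5088.1 and 5744.5 in the resistant arrays, with no overlap. The log2 fold change was -0.41 ± 0.17 (SE; limma adjusted p = 0.598, and 0.0153 with the block), and all 3 probe sets of Calr were below 0 and passed with the block. Its membrane-bound relative Canx had 6522.7 and 7027.4 against 5644.1 and 6873.3. The resistant 2 array lay within the range of the original arrays, and the fit gave -0.12 ± 0.17 (SE), with an interval from -0.50 to 0.26. Uggt1 had 212.8 and 240.9 against 182.3 and 182.5, which did not overlap, at -0.31 ± 0.26 (SE; limma adjusted p = 0.88, and 0.616 with the block).

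The disulfide isomerase family was divided. Pdia4 had 452.7 and 890.3 in the original against 225.8 and 546 in the resistant arrays, the same layout as Sdf2l1: brighter on the arrays numbered 2, overlapping between groups, and lower in the resistant array within each number (-0.99 and -0.70). Its log2 fold change was -0.85 ± 0.41 (SE; limma adjusted p = 0.699, and 0.00105 with the block, the lowest of the 35), and it lay between -1.48 (without resistant 2) and -0.22 (without resistant 1) when 1 array was left out. Pdia6 had 2067.2 and 2099.8 against 1571.6 and 1385.7, with no overlap and original arrays close together (-0.50 ± 0.17, SE; limma adjusted p = 0.475, and 0.0335 with the block). Pdia3, the partner of calreticulin and calnexin, had 5551.4 and 7697.4 against 4937.9 and 6274, with overlapping groups, at -0.23 ± 0.20 (SE).

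P4hb, the founding disulfide isomerase, had 8408.6 and 8381.7 in the original against 7567.5 and 9598.9 in the resistant arrays, which lay on either side of the original ones (0.02 ± 0.18, SE). Erp44, which retains client enzymes in the early secretory pathway, had 1657.2 and 1954.5 against 1784.2 and 1794 (-0.01 ± 0.17, SE). Erp29 had 1196.1 and 857.4 against 1031 and 949.1 (-0.03 ± 0.20, SE). The intervals ran from -0.37 to 0.42 for P4hb, from -0.39 to 0.37 for Erp44 and from -0.49 to 0.42 for Erp29. A value as low as that of Calr (-0.41) lies within the interval of Erp29 and below those of P4hb and Erp44. Txndc5 had the highest value of the set, with 1880.4 and 1549.5 against 1811.3 and 2262.8. It was -0.05 between the arrays numbered 1 and 0.55 between those numbered 2, and the fit gave 0.25 ± 0.19 (SE; limma adjusted p = 0.868). The other probe set of Txndc5 gave 0.32, with both resistant arrays above both original arrays. It did not pass with the block (limma adjusted p = 0.266).

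The translocon genes had values near 0. Sec61a1, which forms the channel, had 3283.3 and 3053.8 in the original against 3075.6 and 3015.1 in the resistant arrays (-0.06 ± 0.16, SE), and its 6 probe sets ran from -0.28 to 0.10. Sec61b, a small subunit of the channel, had 3603.2 and 4107.4 against 3739.3 and 4582.7 (0.11 ± 0.18, SE). Sec63, which brings BiP to the channel, had 1069.5 and 844.8 against 1097.7 and 963.4 (0.11 ± 0.19, SE). Ssr1, of the translocon-associated complex, had 3981.3 and 3184.3 against 3697.4 and 3690.2 (0.05 ± 0.17, SE). The groups overlapped in all 4 genes, none of which passed with or without the block.

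In ER-associated degradation Herpud1 stood lowest. This membrane protein, which helps assemble the degradation complex, had 845.4 and 742.2 in the original against 670.5 and 407.5 in the resistant arrays. The groups did not overlap, and resistant 2 was the lowest array (-0.33 and -0.86 within the numbers). The fit gave -0.60 ± 0.25 (SE; limma adjusted p = 0.61, and 0.0335 with the block), and the value was -0.24 without resistant 2 and -0.95 without resistant 1. Edem1 and Edem2, which trim mannose from misfolded glycoproteins, had 501.9 and 415.3 against 391 and 378.3, and 303.3 and 294.5 against 284.8 and 270.2. Neither overlapped between the groups, and neither passed (-0.25 ± 0.21 and -0.11 ± 0.23, SE). The ubiquitin ligase gene Syvn1 had 453.5 and 411.2 against 427.1 and 360.3, and its partner Sel1l had 544.1 and 347.5 against 465.6 and 377.6, at -0.14 ± 0.21 and -0.05 ± 0.26 (SE). All 4 tested probe sets of Sel1l were below 0, down to -0.59, and none passed. Derl1 (1933.5 and 2275.3 against 2340.1 and 2072.7), Derl2 (1649.7 and 1444.8 against 1474.7 and 1342.2) and the lectin gene Os9 (513.1 and 391.1 against 568 and 439.8) overlapped between the groups. Their log2 fold changes were 0.07 ± 0.17, -0.13 ± 0.17 and 0.16 ± 0.23 (SE). All 4 tested probe sets of Derl1 were above 0. In those at 0.224 and 0.225 both resistant arrays lay above both original arrays, and none passed with the block. The other probe set of Os9 gave -0.19.

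Other probe sets of the same genes were read as a check on the choice of 1 probe set per gene. Of 78 probe sets for the 35 genes 75 were tested, 55 of them below 0 (all probe sets tested: 50.3%), and 16 passed with the replicate block, all lower, where 3.07% of all probe sets tested passed lower and 2.37% higher. Of the 20 genes with more than 1 tested probe set, 12 had all of them on the same side of 0. When the probe sets of each gene were averaged, the median of the 35 genes was -0.20 and 27 were below 0, and with the block 8 passed, all lower (all genes tested: 3.67% lower and 3.09% higher). These 8 include Hsp90b1, and Dnajc3, Pdia6 and Herpud1 were not among them. With the block and quantile normalization 8 also passed, all lower (all genes tested: 2.9% lower and 2.71% higher). The values for Xbp1, Hspa5, Sdf2l1, Manf, Calr and Pdia4 passed in 3 of the 4 fits with the block that were run, the exception being the fit without a variance trend.

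Each array's level of the set was taken as the median over the 35 genes of the log2 signal minus the gene's own mean over the 4 arrays. It was 0.12 and 0.08 on the original and -0.09 and -0.10 on the resistant arrays. The same median over all genes tested ran from -0.02 to 0.04. On the resistant arrays 25 and 24 of the 35 genes lay below their own mean, and on the original arrays 9 and 14. Within the groups the median difference of array 2 minus array 1 was 0.02 in the original and -0.003 in the resistant cells, although Sdf2l1 (1.18 and 1.00) and Pdia4 (0.97 and 1.26) were brighter on the second array of both groups.

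**Figure D3:**
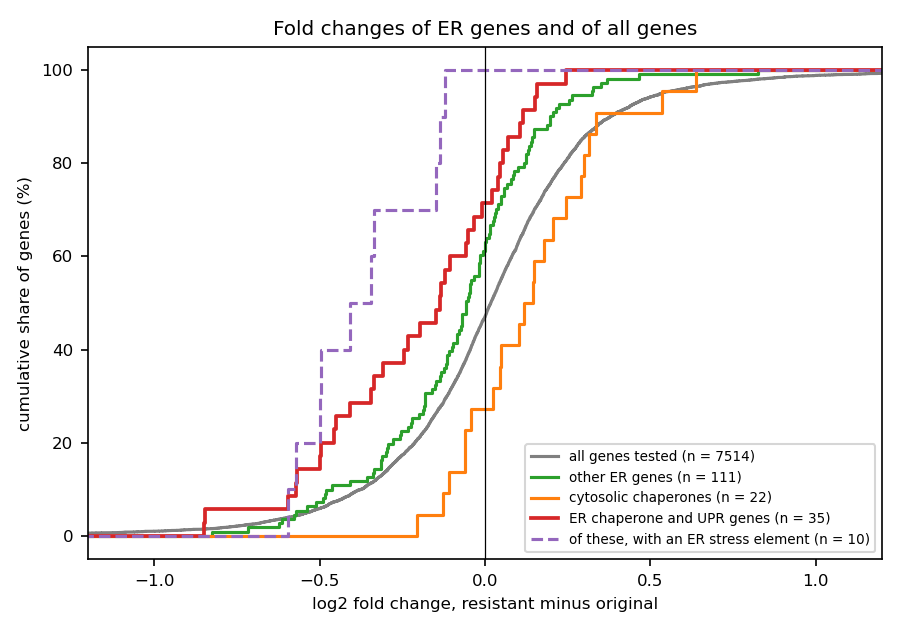
Cumulative share of genes (y axis, percent) by log2 fold change, resistant minus original (x axis), for all 7514 genes tested, 111 other ER genes, 22 cytosolic chaperone genes, the 35 genes of the set and the 10 of these with an ER stress element in their promoter. The curve of the 35 genes crosses 0 at 71.4% and that of all genes at 47%.

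Other genes of the ER were taken from 5 lists, of which 111 genes were tested. Their median log2 fold change was -0.06, with 69 below 0 (62.2%, against 47% of all genes tested). None passed the test over all probe sets. At an unadjusted limma p under 0.05 there were 10 lower and 1 higher, against 4.01% and 4.09% of all genes tested. With the replicate block 6 passed lower and 1 higher, against 3.18% and 2.9% of all genes tested. Genes that act on entering proteins, which cleave the signal peptide or attach and trim the sugar chain, had a median of -0.15 over 27 tested genes, with 20 below 0. With the block 4 of them passed lower: the signal peptidase subunit genes Spcs3 (-0.72) and Sec11c (-0.57), and Ostc (-0.54) and Tusc3 (-0.61) of the oligosaccharyl transferase. Spcs3 had 1846.6 and 1881.2 in the original against 1150.9 and 1114.1 in the resistant arrays, with no overlap (limma adjusted p = 0.185, and 0.000653 with the block). Among 21 other folding factors, with a median of 0.0002, the prolyl isomerase gene Fkbp2 was lower (-0.62) and its relative Fkbp7 higher (0.83) with the block. Of 28 genes of transport from the ER to the Golgi, with a median of -0.09, the coat subunit gene Sec24d passed with the block (-0.83). Of these 28 genes 20 were below 0 and 8 above, and the share below 0 (71.4%) was that of the 35 genes. Of 21 other genes of degradation, with a median of -0.02, 0 passed.

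The remaining regulators of the unfolded protein response had a median of -0.02 over 14 tested genes, 7 on either side of 0, and 0 passed with or without the block (1 lower and 0 higher at an unadjusted limma p under 0.05). The lower one was Atf6b, the relative of Atf6, with 336.5 and 340.5 in the original against 243.3 and 229.9 in the resistant arrays, which did not overlap (-0.51 ± 0.23, SE; limma adjusted p = 0.665, and 0.188 with the block). Trib3, a stress-induced pseudokinase, had 180 and 254.3 against 159.8 and 126.9, also with no overlap (-0.58 ± 0.30, SE; limma adjusted p = 0.738, and 0.21 with the block). In 3 of the 14 genes both resistant arrays lay below both original arrays, and in 3 both lay above. Over all genes tested 17.3% and 19.9% were separated in these directions. Those above were Nfe2l2 (0.21), Tmbim6 (0.14) and Rtcb (0.02), and Creb3 (-0.22) was also below. Eif2ak3, which encodes the sensor PERK, had 427.3 and 322.6 in the original against 338.7 and 205.1 in the resistant arrays (-0.49 ± 0.29, SE). Its downstream transcription factor gene Atf4 had 4437.1 and 5583.8 against 5285 and 5565.6 (0.12 ± 0.17, SE). Ddit3, the stress-induced factor CHOP, had 187 and 239 against 200.2 and 173 (-0.18 ± 0.27, SE). The groups overlapped in Eif2ak3, Atf4 and Ddit3. These values are transcript levels, and the activity of the encoded proteins was not measured. Chaperones of the cytosol had a median of 0.13 over 22 tested genes, with 16 above 0. Hsph1, a cytosolic relative of the HSP70 family, passed higher with the block (0.64), from 1904.7 and 2261 to 3254 and 3204.8. The cytosolic list's median was 0.20 between the arrays numbered 1 and -0.01 between those numbered 2, and its difference from the ER set was not tested.

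**Figure D4:**
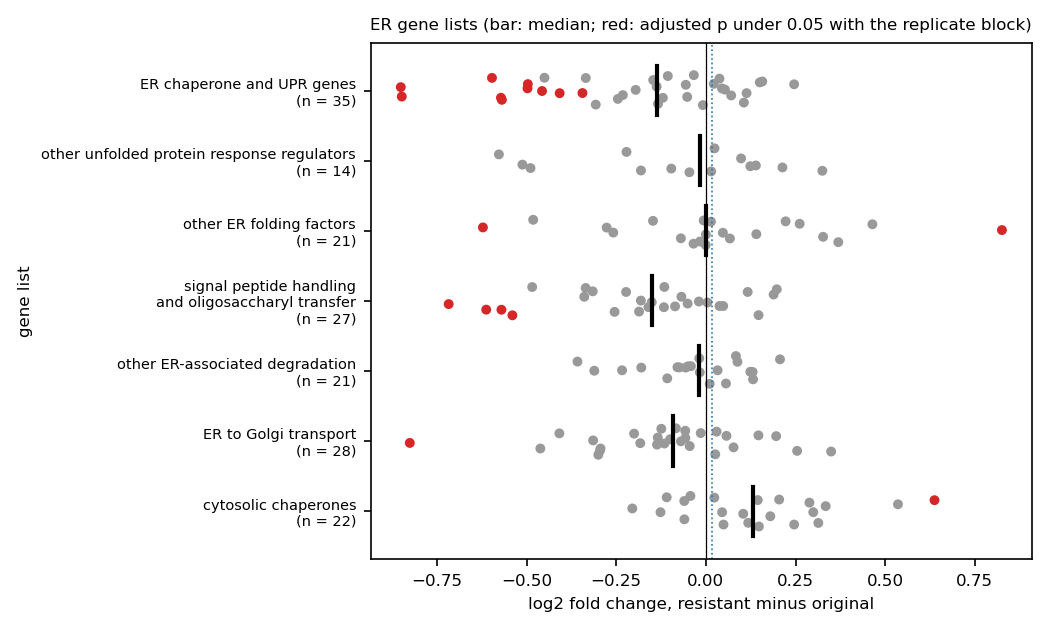
Log2 fold change, resistant minus original (x axis), of each tested gene in the ER chaperone and unfolded protein response set and 6 other lists (y axis, with n), with the median as a black bar, genes with an adjusted p under 0.05 with the replicate block in red and the median of all genes tested as a dotted line. The set's median is -0.14 and that of the cytosolic chaperones 0.13, and the red points of the set all lie left of 0.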

How the data were processed

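The deposited table holds MAS5 signal intensities, 1 per probe set and array, on a linear scale, made by the authors with MAS5 per the submitters' processing notes (version not given in the sources used here). The labels assigned 2 arrays to each group. Of 22690 probe sets 64 were controls and were not tested; the platform annotation gave 1 symbol for 20380, several for 691 and none for 1555. Arrays were scaled to a common mean without the top and bottom 2%, log2(signal + 3) was taken, and probe sets with a mean signal below the 40th percentile were left out. The difference of resistant minus original was fitted with lmFit and eBayes (mean-variance trend) of limma 3.58.1 under R 4.3.3, with two-sided p-values, Benjamini-Hochberg adjustment over 13576 probe sets and a threshold of 0.05; intervals are 95%. The fit without the block was tested on simulated data, with independent errors and no effect of the replicate number. The fit with the block was not tested in this way. The labels do not state that replicate numbers pair the arrays. The difference of array 2 minus array 1 correlated at 0.35 between the groups across probe sets, which are not independent, and the spiked controls split the same way. Promoters were searched in the RefSeq table. The genes and lists were chosen with earlier results of these data known. Values are given for every tested gene of the set. Of the other lists, genes that passed with or without the block are named. Eif2ak3, Atf4, Ddit3, Atf6b, Trib3, Nfe2l2, Tmbim6, Rtcb, Creb3 and the genes outside the set with an ER stress element were named after their values were seen. Alternatives covered the block, pseudocount, filter, scaling, variance model, probe sets and each array. Precision is limited by the 4 arrays.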

Additional observations from a re-analysis of the deposited data

How the results depend on the processing

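In every setting run, 0 of the 35 genes were called higher, and without the replicate block 0 were called lower; with it 10 were, 8 with the block and quantile normalization, 8 with the block and averaged probe sets, and 0 with the block and no variance trend. The cause was not tested. The samples share only a number in the labels, so a call gained with the block takes the pairing by number as given. Such a call also rests on the error of that fit. In the fit that called 10 genes limma's prior degrees of freedom were infinite, against 8.18 without the block. The SE without and with the block was 0.167 and 0.157 for Pdia6, and 0.405 and 0.198 for Pdia4. The shares of the pairing and of the error model in these calls were not tested. Over all probe sets 34 were called, and 739 with the block, 678 with the block and quantile normalization, 578 with the block and averaged probe sets (of 8573 rows), 99 with the block and no trend, 5 with no filter on dim probe sets, 11 with a filter at the 60th percentile (which leaves 33 of the 35 genes), 8 with quantile normalization, 5 with no trend, and 30 to 107 when 1 array was left out. The 3 settings that join the block with a second change, and a filter on the mean log2 value, were chosen after seeing the data; that filter called 12 genes lower and 8 higher, against 16 and 10. The median of the 35 genes was -0.20 with averaged probe sets, with and without the block, and -0.22 to -0.13 when 1 array was left out. With averaged probe sets, with and without the block, Hyou1 (-0.40), Erp44 (0.00011), Ssr1 (-0.074) and Os9 (-0.017) changed sign. Leaving out 1 array changed the sign of Ern1 (-0.036 to 0.34), Hyou1 (-0.23 to 0.32), Dnajc10 (-0.16 to 0.24), Canx (-0.26 to 0.022), P4hb (-0.15 to 0.19), Pdia3 (-0.47 to 0.0047), Erp29 (-0.27 to 0.21), Erp44 (-0.13 to 0.11), Sec61b (-0.040 to 0.25), Sec63 (-0.055 to 0.28), Ssr1 (-0.11 to 0.21), Sel1l (-0.37 to 0.27), Derl1 (-0.047 to 0.19) and Os9 (-0.037 to 0.35), none of which passed in any setting. The other 21 genes kept their sign in every setting that measured them. Signal over background limits Ern1, the dimmest of the set.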
